A study of Mus musculus with 10 samples.

Results

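The genes described here are the 5 muscarinic acetylcholine receptors (*Chrm1* to *Chrm5*), the nicotinic receptor subunits *Chrna4*, *Chrna5*, *Chrna7* and *Chrnb2*, and the acetylcholine-degrading enzyme *Ache*. They were taken by name from the count table of a study of *Zbtb16*, a zinc finger transcription factor, and all 10 were among its 22000 genes. The prefrontal cortex (PFC) of 5 *Zbtb16* knockout (KO) mice and 5 wild-type (WT) mice was measured by RNA-seq, with 1 stranded mRNA library per mouse. KO mice were homozygous for *lu*, a single-nucleotide nonsense mutation of *Zbtb16* carried in the germline, on the B6.C3 background supplied by The Jackson Laboratory. WT mice lacked the mutation. All 10 mice were labelled male and were 7 weeks old, and whether the sequenced mice were littermates is not given in the sources used here. The question asked of each gene was whether its transcript level differed between genotypes.

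Acetylcholine reaches the PFC mainly through axons from the basal forebrain, whose cell bodies lie outside the dissected tissue, and it modulates attention and working memory. Muscarinic receptors couple to G proteins: *Chrm1*, *Chrm3* and *Chrm5* encode receptors that activate Gq and phospholipase C, whereas *Chrm2* and *Chrm4* encode receptors that act through Gi/o to lower cyclic AMP. Nicotinic receptors are cation channels assembled from subunits, in cortex chiefly those encoded by *Chrna4* and *Chrnb2*, with *Chrna5* as an accessory subunit in deep-layer pyramidal neurons and *Chrna7* forming a channel of its own. *Ache* ends the signal by splitting acetylcholine in the synaptic cleft.

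The libraries held 30220122 to 51231439 counts, so that 3 counts, the floor used here, stood for 0.0586 to 0.0993 counts per 1000000 (CPM), which covers counting error only. *Zbtb16* itself averaged 47.4 ± 4.96 CPM in KO mice and 79.0 ± 7.23 CPM in WT mice (mean ± SD, n = 5 each, the form of all means below), and no KO mouse reached the level of any WT mouse (exact permutation test, two-sided, p = 0.00794, the smallest p that 5 against 5 mice allow). The mutation leaves a transcript that can still be counted, so this level checks the labels only in part. KO mouse 3 held 1 count over 4 Y-linked genes, against 4376 to 8182 counts in the other 9 mice, which goes against its male label. KO mouse 5 stood apart from the rest on the first surrogate variable, an unlabelled source of variation estimated from all genes, with a value of 0.87 against -0.30 to 0.11 elsewhere. KO mouse 2 stood apart on the second surrogate variable, with a value of 0.73, the next highest being 0.39 in WT mouse 5. Values without these mice are therefore given beside the results that they move most. The RNA integrity number (RIN) ran from 8.1 in KO mouse 5 to 9.8 in WT mouse 1. It was 8.2 in WT mice 3 and 4 and 8.3 in KO mouse 3. KO mouse 5 also held the most counts, 51231439. The part of RNA integrity or depth in the values of KO mouse 5 was not tested. The cortical excitatory markers summed to 7130 to 8558 CPM over 6 genes, none of them at 0 in any library.

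Of the 10 genes, 9 passed the filter on low counts and were tested by edgeR's quasi-likelihood test with 3 surrogate variables and Benjamini-Hochberg adjustment over 14344 genes. None of the 9 passed an adjusted p of 0.05, at which 0.844% of all genes tested passed (0.6% higher and 0.244% lower in KO mice). At an unadjusted p below 0.05 there were 2 of them, *Chrm1* with the higher and *Chrm2* with the lower KO level, where 10.6% of all genes passed and 5.1% did so with a lower KO level, and DESeq2 with the same surrogate variables called 1 of them, *Chrm2*, where it called 1.6% of all genes. The log2 fold change (KO minus WT) was positive for 3 genes and negative for 6, with a median of -0.06, beside a median of -0.004 and 51.9% negative values over all genes tested. A full separation of the genotypes, with every KO mouse below every WT mouse, was seen for 1 of the 9, *Chrm2*. Over all genes tested, 1.58% were separated in either direction, 0.683% with lower and 0.899% with higher KO values. In these bulk samples fewer cells of a type and less RNA per cell cannot be told apart.

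**Figure D1:**
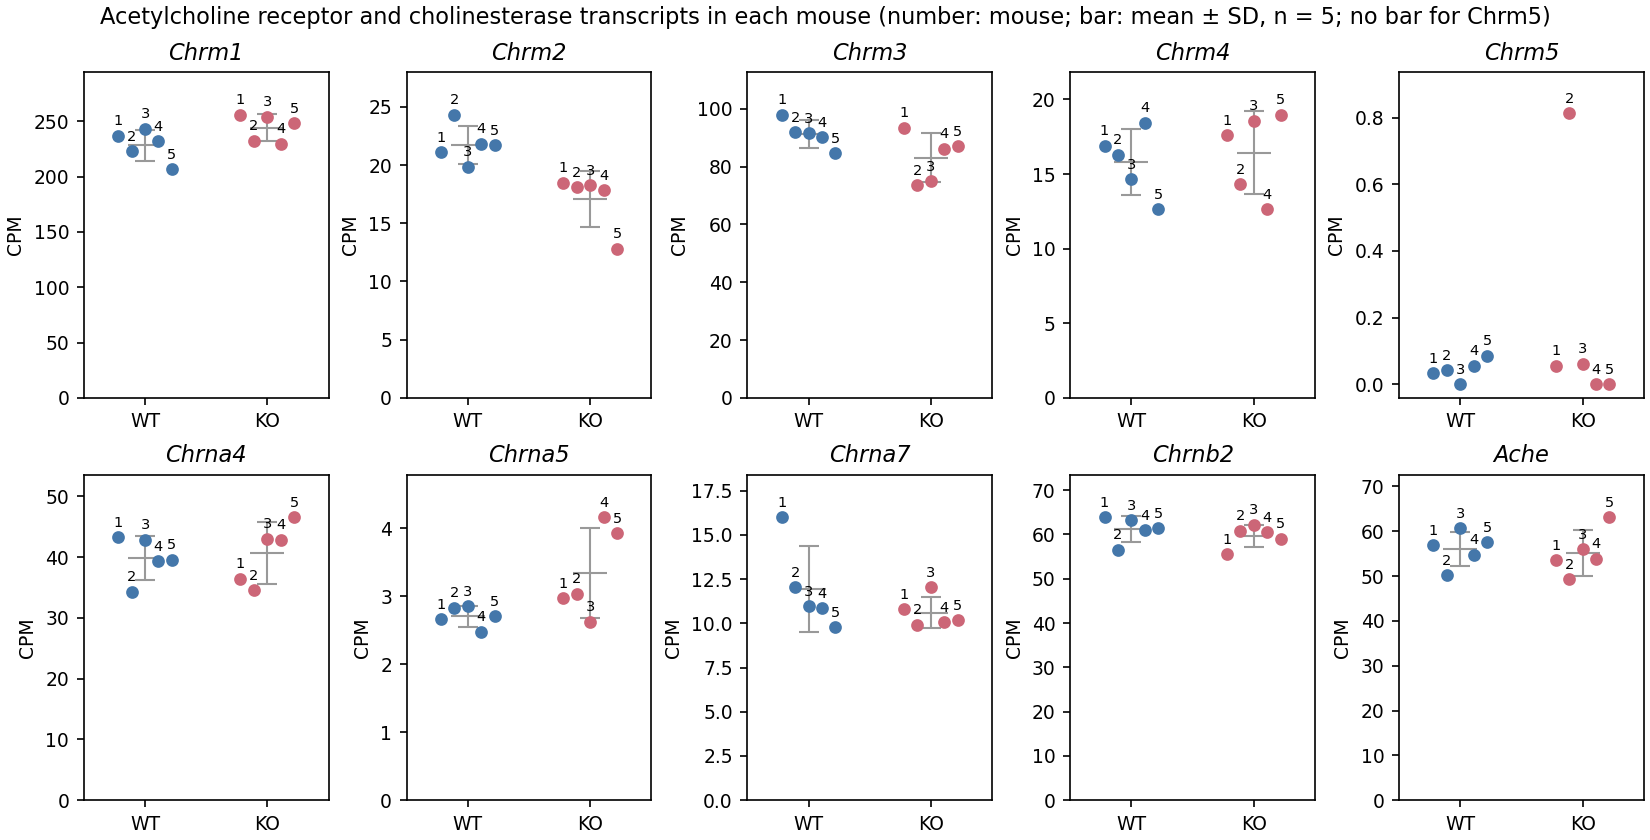
Level of each of the 10 transcripts in CPM (vertical axis, starting at 0 except for *Chrm5*) in the 5 WT and 5 KO mice, each point being 1 mouse with its number, and the bars giving the mean ± SD. The *Chrm2* points of the KO mice, at 12.8 to 18.5 CPM, all lie below those of the WT mice, at 19.8 to 24.3 CPM, whereas the other genes overlap.

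The transcripts covered a wide range of levels. Expressed as CPM per kilobase of exon (RPKM), so that genes of different length can be set side by side, *Chrm1* was highest at 36.4 ± 2.30 over the 10 mice. *Chrm3* followed at 13.9 ± 1.24, *Ache* at 12.02 ± 0.928 and *Chrm4* at 11.2 ± 1.67 RPKM. *Chrna4* stood at 8.03 ± 0.827 and *Chrnb2* at 7.21 ± 0.321 RPKM, and below them came *Chrm2* at 3.21 ± 0.517, *Chrna7* at 2.50 ± 0.411 and *Chrna5* at 0.967 ± 0.181 RPKM. *Chrm5*, the receptor best known from midbrain dopamine neurons, was last with 0 to 0.509 RPKM. The exon length used was 1440 bases for *Chrm4* and 1599 for *Chrm5*, against 6053 to 6487 for *Chrm1*, *Chrm2* and *Chrm3*. Places in this order and shares of the muscarinic sum depend on these annotated lengths. The ranges of neighbours in this order were apart for *Chrm1* and *Chrm3*, for *Chrnb2* and *Chrm2*, for *Chrna7* and *Chrna5*, and for *Chrna5* and *Chrm5*. All other neighbours overlapped in range. *Chrm3* exceeded *Ache* in 9 of 10 mice, *Ache* exceeded *Chrm4* in only 6, and *Chrm4* exceeded *Chrna4* in all 10. *Chrna4* exceeded *Chrnb2* in 9, and *Chrm2* exceeded *Chrna7* in 8.

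**Figure D2:**
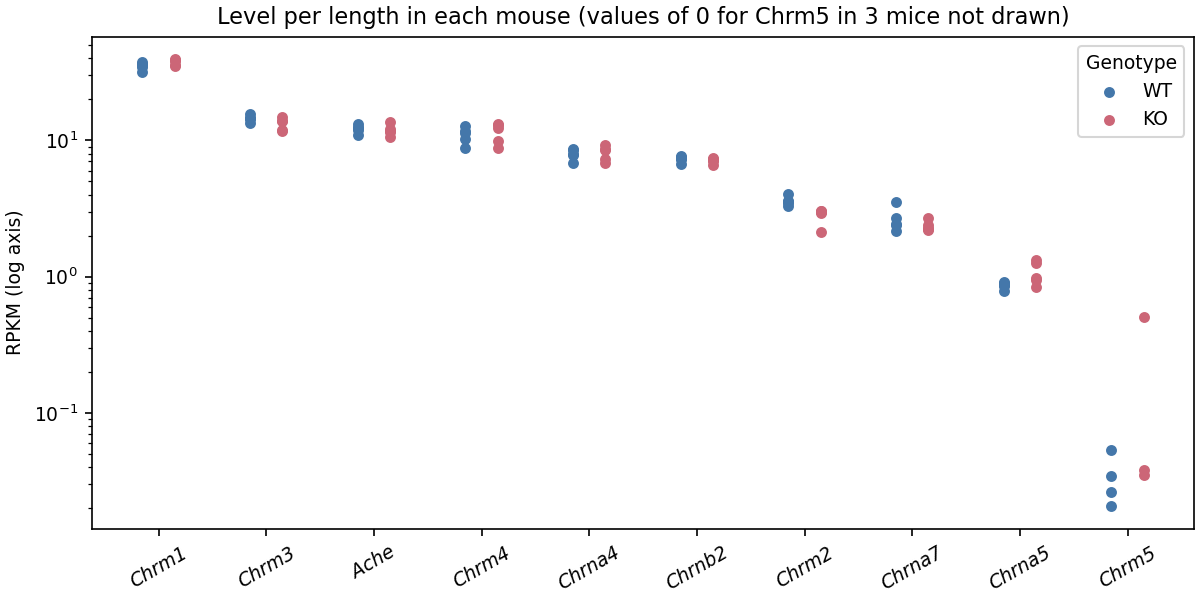
Level per exon length in RPKM (vertical log axis) of the 10 genes, ordered by their mean over 10 mice, with 1 point per mouse. Means run from 36.4 RPKM for *Chrm1* to 0.967 for *Chrna5*, and *Chrm5*, at 0 in 3 mice that are not drawn, lies below all others.

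*Chrm1* encodes the main Gq-coupled receptor of cortical pyramidal neurons (ENSMUSG00000032773, chr19:8663789-8683587, plus strand, GRCm38). It was measured at 237, 223, 243, 232 and 207 CPM in WT mice 1 to 5 and at 256, 232, 254, 229.5 and 248 CPM in KO mice 1 to 5. All 5 KO mice were above the WT mean and 3 of them were above every WT mouse, but the groups overlapped. The means were 244 ± 12.2 CPM in KO and 228 ± 14.1 CPM in WT mice, and the estimate of edgeR's quasi-likelihood test was a log2 fold change of 0.10 (SE 0.03, adjusted p = 0.218). Its 95% interval allowed a KO level 1.02 to 1.12 times that of WT, and the exact permutation test gave p = 0.0952. The estimate leaned on WT mouse 5, the lowest of all, without which it was 0.036 (edgeR adjusted p = 0.886), and in the other fits that left out 1 mouse it ran from 0.063 to 0.11.

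*Chrm3*, a second Gq-coupled receptor (ENSMUSG00000046159, chr13:9875486-10360847, minus strand), showed 97.9, 91.8, 91.5, 90.1 and 84.5 CPM in WT mice and 93.5, 73.6, 75.0, 86.2 and 87.0 CPM in KO mice. KO mice 2 and 3 were the only ones below all WT mice. The mean was 83.1 ± 8.50 CPM in KO and 91.2 ± 4.78 CPM in WT mice, with a log2 fold change of -0.09 (SE 0.05, edgeR adjusted p = 0.529) and an interval of 0.873 to 1.01 times WT, so a lower KO level was not shown. It was -0.044 without KO mouse 3, and over all fits that left out 1 mouse it ran from -0.039 without KO mouse 2 to -0.17 without KO mouse 1.

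*Chrm5*, the third receptor of this type (ENSMUSG00000074939, chr2:112479171-112480769, minus strand, 1 exon), was close to undetected. It had 1, 2, 0, 2 and 3 counts in WT mice 1 to 5 and 2, 26, 2, 0 and 0 counts in KO mice 1 to 5. All libraries but that of KO mouse 2 were at or under the floor of 3 counts. The gene did not pass the filter, and neither a fold change nor a test is given.

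*Chrm2*, which encodes a Gi/o-coupled receptor found on cholinergic terminals and on cortical interneurons (ENSMUSG00000045613, chr6:36388084-36528414, plus strand), had the smallest p of the 9 genes. It stood at 21.1, 24.3, 19.8, 21.8 and 21.7 CPM in WT mice 1 to 5 and at 18.5, 18.1, 18.3, 17.8 and 12.8 CPM in KO mice 1 to 5. KO mice 1 to 4 lay within 1 CPM of each other and below every WT mouse, and KO mouse 5 lay well below them. The KO mean was 78.6% of the WT mean, and the exact permutation test gave p = 0.00794. The study that produced these libraries already discusses *CHRM2* as an example among its downregulated genes. The gene was listed here with that known, so its lower KO level is not independent support. The edgeR estimate, which takes the surrogate variables into account, was smaller, with a 95% interval of 0.761 to 0.918 times WT (log2 -0.39 to -0.12) and an adjusted p of 0.0775 at rank 168 of all genes.

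Since all KO mice lay below all WT mice, leaving out KO mice cannot end the separation, and the size of the difference is given instead. Without KO mouse 5 the KO mean was 18.2 ± 0.281 CPM and the log2 fold change -0.23 (edgeR adjusted p = 0.204). Without KO mouse 3 the mean was 16.8 ± 2.68 CPM and the log2 fold change -0.27 (edgeR adjusted p = 0.140). With both left out it was -0.25 (edgeR adjusted p = 0.227). The call depended on the libraries: without KO mouse 2 *Chrm2* passed (edgeR adjusted p = 0.0425, log2 fold change -0.29), while over all 10 fits that left out 1 mouse the adjusted p ran up to 0.277. DESeq2 also called it (adjusted p = 0.0466), and over the other alternatives the log2 fold change ran from -0.40 to -0.18 and the adjusted p up to 0.999.

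*Chrm4*, the second Gi/o-coupled receptor and one best known from striatal projection neurons (ENSMUSG00000040495, chr2:91927249-91928688, plus strand, 1 exon), did not separate the genotypes. It was measured at 16.9, 16.3, 14.7, 18.4 and 12.7 CPM in WT mice and at 17.6, 14.3, 18.6, 12.7 and 19.0 CPM in KO mice. The ranges of the genotypes nearly coincided, with means of 15.8 ± 2.21 CPM in WT and 16.4 ± 2.79 CPM in KO mice. The log2 fold change was 0.03 (SE 0.10, edgeR adjusted p = 0.954), the interval allowed 0.877 to 1.19 times WT, and the sign turned in some alternatives (-0.12 to 0.14 when 1 mouse was left out).

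Set against the sum of the muscarinic receptors, the *Chrm2* share was the one that separated the genotypes. It made up 5.17, 6.24, 5.00, 5.42 and 6.21% of muscarinic RPKM in WT mice and 4.38, 4.90, 4.50, 4.84 and 3.14% in KO mice. The KO values were all lower, although the gap between the highest KO mouse and the lowest WT mouse was narrow. The *Chrm1* share averaged 57.7 ± 0.9752% in KO and 54.7 ± 1.53% in WT mice, with WT mouse 3 at 57.2% reaching into the KO range. The *Chrm3* share was 20.4 ± 1.86% against 22.7 ± 0.709%, and that of *Chrm4* 17.4 ± 2.12% against 17.0 ± 1.65%. Grouped by coupling, *Chrm2* and *Chrm4* together held 21.8 ± 1.68% in KO and 22.6 ± 1.69% in WT mice, which overlapped. The sum itself was 65.2 ± 4.02 RPKM in KO and 64.4 ± 3.82 RPKM in WT mice. The ratio of *Chrm2* to *Chrm1* was 0.0753 ± 0.0116 in KO and 0.103 ± 0.0121 in WT mice, without overlap. These shares are built from the same values as the gene levels, and no test was added for them.

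Among the nicotinic subunits, *Chrna4* (ENSMUSG00000027577, chr2:181018380-181043546, minus strand) showed 43.3, 34.3, 42.9, 39.4 and 39.6 CPM in WT mice and 36.4, 34.5, 43.1, 42.9 and 46.6 CPM in KO mice. The groups overlapped over most of their range. Its log2 fold change was -0.01 (SE 0.07, edgeR adjusted p = 0.970, interval 0.8996 to 1.09 times WT), and the sign differed between alternatives. Its partner *Chrnb2* (ENSMUSG00000027950, chr3:89746195-89764632, minus strand) was the least variable of the 9 genes between mice, at 64.0, 56.5, 63.2, 61.0 and 61.4 CPM in WT mice and 55.6, 60.9, 62.2, 60.5 and 59.0 CPM in KO mice. The means of 61.2 ± 2.88 CPM in WT and 59.7 ± 2.54 CPM in KO mice differed by less than either SD, and the log2 fold change was -0.06 (SE 0.05, edgeR adjusted p = 0.739, interval 0.892 to 1.03 times WT). In the Gencode annotation 1365 bases of *Chrnb2* exons, 16.3% of their length, are shared with *Adar* on the opposite strand, and whether reads were counted by strand is not given in the sources used here. The ratio of *Chrna4* to *Chrnb2* RPKM was 1.14 ± 0.135 in KO and 1.09 ± 0.0489 in WT mice.

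*Chrna5*, the accessory subunit (ENSMUSG00000035594, chr9:54980880-55007779, plus strand), lies 6.14 Mb from *Zbtb16* and is the only one of the 10 genes on chromosome 9. It was counted at 2.66, 2.83, 2.85, 2.47 and 2.702 CPM in WT mice, a narrow band, and at 2.97, 3.04, 2.62, 4.16 and 3.92 CPM in KO mice. KO mice 1, 2, 4 and 5 were above every WT mouse and KO mouse 3 was not. The KO mean of 3.34 ± 0.665 CPM compared with 2.702 ± 0.151 CPM in WT mice (exact permutation test, p = 0.0556). This gave the largest positive log2 fold change of the 9 genes, 0.28, but also the largest SE, 0.17, at only 80 to 203 counts per library (edgeR adjusted p = 0.597), and the interval of 0.952 to 1.55 times WT held 1. Since KO mouse 3, the library that goes against its male label, was the only one in the way, leaving it out had to separate the genotypes. The share of all genes separated in that set of mice was 2.35%. The exact permutation test then had to give its smallest p for 4 against 5, p = 0.0159, so neither value is support for a difference. The edgeR estimate without KO mouse 3 was 0.33 (edgeR adjusted p = 0.636). Without KO mice 3 and 5 both *Chrm2* and *Chrna5* were free of overlap, at a share of 4.77% of all genes, which the values of all 10 mice likewise fixed in advance. The ratio of *Chrna5* to *Chrnb2* RPKM, 0.150 ± 0.0303 in KO and 0.119 ± 0.00991 in WT mice, overlapped, as did that to *Chrna4*, 0.132 ± 0.0215 against 0.110 ± 0.0134.

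*Chrna7*, whose product forms calcium-permeable channels (ENSMUSG00000030525, chr7:63098692-63212569, minus strand), was measured at 16.01, 12.05, 10.97, 10.9 and 9.78 CPM in WT mice and at 10.8, 9.93, 12.1, 10.1 and 10.2 CPM in KO mice. WT mouse 1 was the highest of all and the other 9 mice lay between 9.78 and 12.1 CPM. The log2 fold change was -0.10 (SE 0.12, edgeR adjusted p = 0.836), and the interval allowed 0.790 to 1.11 times WT. Without WT mouse 1 it was -0.015, and over all fits that left out 1 mouse it ran from -0.21 without WT mouse 3 to -0.013 without KO mouse 4.

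*Ache*, the main cholinesterase of brain (ENSMUSG00000023328, chr5:137287519-137294466, plus strand), was counted at 56.9, 50.2, 60.6, 54.8 and 57.6 CPM in WT mice and at 53.5, 49.3, 56.0, 53.8 and 63.2 CPM in KO mice. KO mouse 5 was the highest and KO mouse 2 the lowest of the 10. Means of 55.1 ± 5.11 CPM in KO and 56.0 ± 3.85 CPM in WT mice gave a log2 fold change of -0.07 (SE 0.05, edgeR adjusted p = 0.674), with an interval of 0.887 to 1.02 times WT. Without KO mouse 5 the log2 fold change was -0.11 (edgeR adjusted p = 0.494).

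**Figure D3:**
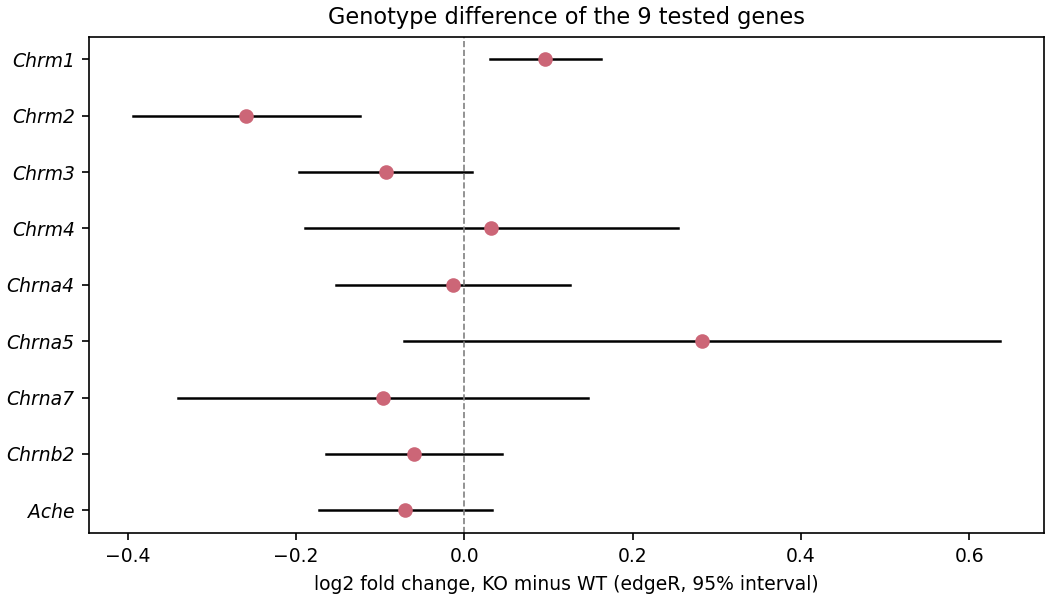
Log2 fold change (KO minus WT, horizontal axis) of the 9 genes tested, from edgeR with 3 surrogate variables, with points for the estimates and lines for 95% intervals. The intervals of *Chrm2* (-0.39 to -0.12) and *Chrm1* (0.03 to 0.16) leave out 0 before adjustment, and that of *Chrna5* is the widest.

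The other genes of cholinergic signalling were read from lists of the remaining nicotinic subunits, of acetylcholine synthesis and breakdown, of receptor chaperones, and of the Gq and Gi/o arms. Of the 40 genes of these lists that were tested, 1 passed an adjusted p of 0.05, against 0.844% of all genes. None of their tested members separated the genotypes without overlap, beside 1.58% of all genes tested.

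The list of synthesis, vesicle loading, choline uptake and cholinesterase partners had the median farthest from 0. None of its 7 genes passed, but in the fit with 3 surrogate variables all 7 had negative log2 fold changes, with a median of -0.38. Over all genes tested 51.9% were negative. *Chat*, *Slc18a3*, *Slc5a7*, *Prima1* and *Colq* had at most 87 counts in any library. *Slc44a1*, the most abundant of the list at 2852 to 4700 counts, was at -0.01 (SE 0.045), and *Slc5a7* was at -0.05 (SE 0.31). In CPM, before surrogate variables, *Slc5a7* alone of the list had the higher mean in KO mice, 0.937 ± 0.108 against 0.906 ± 0.289 in WT mice. *Bche*, which encodes butyrylcholinesterase, the second enzyme that degrades acetylcholine, was at 6.05, 4.48, 5.53, 5.59 and 6.54 CPM in WT mice and at 2.77, 5.64, 5.12, 2.72 and 3.11 CPM in KO mice. KO mice 1, 4 and 5 were below every WT mouse, while KO mice 2 and 3 lay inside the WT range. Its log2 fold change was -0.73 (SE 0.17, edgeR adjusted p = 0.0614), and with no surrogate variables it was -0.55 (edgeR adjusted p = 0.520). The call turned on single libraries and on the tool, with edgeR adjusted p = 0.0279 without KO mouse 2, 0.0306 without KO mouse 3 and 0.0136 without KO mice 3 and 5, a DESeq2 adjusted p of 0.00714, and up to 0.276 in fits that left out 1 mouse and 0.999 in other alternatives.

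*Chat*, the enzyme that makes acetylcholine, was rare in all libraries, with 5 to 43 counts. It measured 0.498, 0.356, 0.310, 0.584 and 1.22 CPM in WT mice and 0.141, 0.219, 0.216, 0.266 and 0.522 CPM in KO mice. KO mice 1 to 4 were below every WT mouse, KO mouse 5 was not, and WT mouse 5 was the highest. The log2 fold change was -1.47 (SE 0.44, edgeR adjusted p = 0.168), without KO mouse 5 it was -1.55 (edgeR adjusted p = 0.194), and without WT mouse 5 it was -1.04 (edgeR adjusted p = 0.599). With no surrogate variables the log2 fold change of *Chat* was -1.05 (edgeR adjusted p = 0.605). *Colq*, the collagen tail that anchors *Ache* at muscle endplates, had a log2 fold change of -0.38 (edgeR adjusted p = 0.659). *Slc18a3*, the vesicular transporter that shares a locus with *Chat*, had -0.50 (edgeR adjusted p = 0.786). Its mean was 0.400 ± 0.209 CPM in KO and 0.438 ± 0.242 CPM in WT mice, with the KO range inside the WT range.

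The Gq arm held the single gene that passed. *Plcb4*, a phospholipase C that Gq activates, was at 109.7, 112, 97.4, 104 and 110.5 CPM in WT mice and at 134, 106, 124, 129 and 104 CPM in KO mice. KO mice 1, 3 and 4 were above every WT mouse and KO mice 2 and 5 were within the WT range. *Plcb4* rose in KO mice by a log2 fold change of 0.26 (SE 0.04, edgeR adjusted p = 0.00508), and it passed in each of the 10 fits that left out 1 mouse. The call depended on the surrogate variables and on the test: with none the log2 fold change was 0.16 (edgeR adjusted p = 0.603), with 2 it was 0.20 (edgeR adjusted p = 0.251), and limma on log2(CPM + 1) with all 3 gave 0.26 (adjusted p = 0.153). Over these and the other alternatives the adjusted p ran up to 0.696. Of the 12 genes of this arm, 9 had positive log2 fold changes, with a median of 0.03, where 51.9% of all genes tested had negative values.

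No gene of the remaining lists passed. The Gi/o arm had 0 called of 9 tested and a median log2 fold change of -0.02, and its smallest p belonged to *Rgs4*, which shortens Gi and Gq signals, at 0.12 (edgeR adjusted p = 0.200). It passed without KO mouse 2 (edgeR adjusted p = 0.0213) or without KO mouse 4 (edgeR adjusted p = 0.0476), and its adjusted p ran up to 0.683 in the other fits that left out 1 mouse. Next in that list were *Gnai3* at 0.07 and *Gnai2* at -0.05, both subunits of Gi. The chaperones and Ly6 proteins had 0 called of 7 and a median of -0.01, with *Tmem35* (also named *Tmem35a*), a chaperone that the *Chrna7* channel needs, at 0.15 (edgeR adjusted p = 0.216), *Lypd6* at -0.17 (edgeR adjusted p = 0.246) and *Lypd1*, 17.1% of whose exon length is shared with *Gpr39* on the opposite strand, at 0.10. Among the other nicotinic subunits 5 of 12 were abundant enough to test and 0 were called, with *Chrnb3* at -0.41 (edgeR adjusted p = 0.411), *Chrnb1* at -0.48 and *Chrna2* at 0.39. *Chrnd* and *Chrng*, subunits of the muscle receptor, had 0 counts in all 10 libraries.

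**Figure D4:**
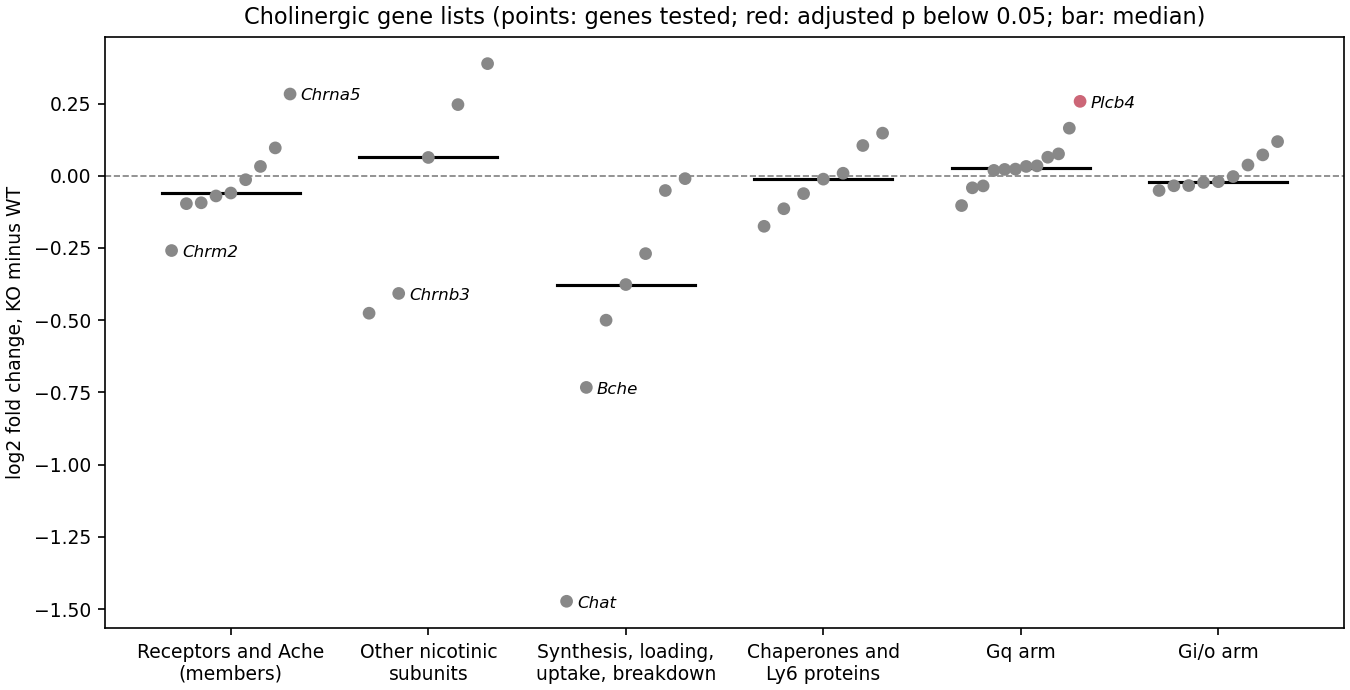
Log2 fold change (KO minus WT, vertical axis) of the tested genes in each cholinergic list, with 1 point per gene, red for an adjusted p below 0.05 and a bar for the median. *Plcb4* at 0.26 is the only red point, and the list of synthesis, loading, uptake and breakdown has its median at -0.38.

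Markers of the cells that could carry these receptors were set beside the results. The 8 inhibitory neuron markers were above 0 in every library. They summed to 922 to 1026 CPM in WT mice and 867 to 961 CPM in KO mice. Of the 8, 7 had negative log2 fold changes (median -0.07), beside 51.9% negative values over all genes tested, and none passed. KO mouse 5, lowest for *Chrm2*, also had the lowest inhibitory sum, 867 CPM, and the highest sum of the 8 markers of layers 5 and 6, 366 CPM. The layer 5 and 6 markers differed in this. KO mouse 5 was highest for *Crym* (90.9 CPM), *Foxp2* (18.3 CPM) and *Ntsr1* (10.9 CPM), but not for *Bcl11b*, *Fezf2*, *Syt6*, *Tle4* or *Ctgf*. WT mouse 2, highest for *Chrm2*, had the lowest sum of layer 5 and 6 markers, 281 CPM, but an inhibitory sum of 967 CPM. The highest inhibitory sum, 1026 CPM, was that of WT mouse 5, with *Chrm2* at 21.7 CPM. With a score of the inhibitory markers in place of the surrogate variables, the *Chrm2* log2 fold change was -0.18 (edgeR adjusted p = 0.999), in a fit that called 0 genes of 14344, with 707 at an unadjusted p below 0.05. The part of these cell type markers in the *Chrm2* values was not tested further.

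The striatal projection neuron markers, of which 11 of 12 were in the table and all were detected, summed to 309 to 621 CPM in WT mice and 339 to 512 CPM in KO mice. The highest sums belonged to WT mouse 5 and KO mouse 4, and these were the mice with the lowest *Chrm4*. KO mouse 5, next in the striatal sum at 479 CPM, had the highest *Chrm4* of all 10 mice. With a score of these markers in place of the surrogate variables, *Chrm2* had a log2 fold change of -0.32 (edgeR adjusted p = 0.491). The 6 cholinergic neuron markers, which include *Chat*, summed to only 1.30 to 3.47 CPM in WT mice and 1.33 to 2.71 CPM in KO mice, with *Lhx8* and *Isl1* among those at 0 in some libraries. WT mouse 5, highest for *Chat*, had the highest sum of these as well as of the striatal markers. The part of tissue from these cells in the *Chat* values was not tested.

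**Figure D5:**
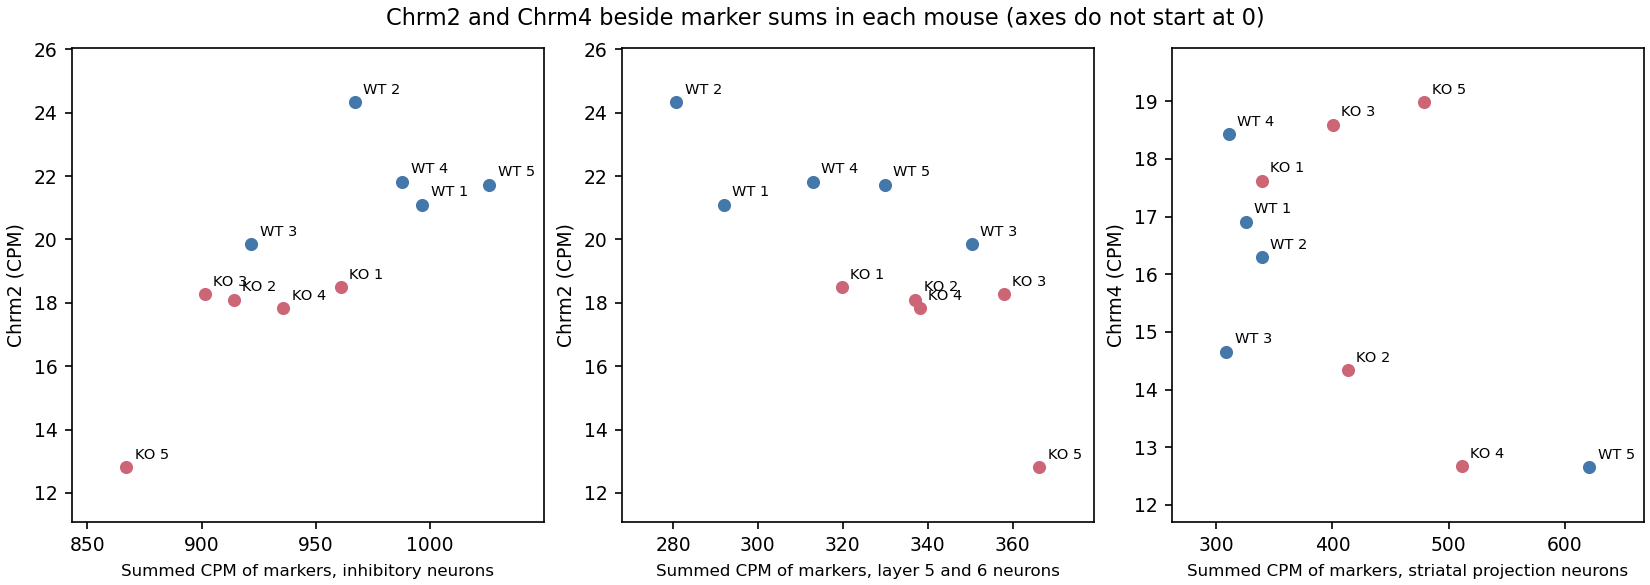
*Chrm2* against the summed CPM of inhibitory neuron markers and of layer 5 and 6 markers, and *Chrm4* against that of striatal projection neuron markers, with 1 labelled point per mouse and axes that do not start at 0. KO mouse 5 is lowest in *Chrm2* and in the inhibitory sum, and WT mouse 5 and KO mouse 4 combine the highest striatal sums, 621 and 512 CPM, with the lowest *Chrm4*, while KO mouse 5 has the highest *Chrm4* at a sum of 479 CPM.

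Within genotypes the mice varied together for some of these genes. After subtraction of genotype means from log2(CPM + 1), Pearson's r over the 10 mice was 0.88 for *Chrna4* with *Ache* (0.85 without KO mouse 5) and -0.86 for *Chrm2* with *Ache* (-0.78 without it). *Chrm1* and *Chrm4* had an r of 0.73 (0.75 without KO mouse 5). These are descriptions of 10 libraries, which share their composition and depth with both genes of a pair. For the values without KO mouse 5, here and below, the subtracted means still included that mouse. Its influence is therefore not fully removed, and these values cannot show that a relation holds without it. Of 11217 other genes with a mean of at least 5 CPM, the 5 most like *Chrm2* were *Dlg1*, *Ppp4r2*, *Brwd1*, *Fitm2* and *Pum2*, with r from 0.97 to 0.99 over 10 mice and from 0.87 to 0.96 without KO mouse 5. None of the 5 had an edgeR adjusted p below 0.05 between genotypes, and all had positive log2 fold changes, from 0.01 to 0.10. For *Chrm4* they were *Zfp653*, *Egr2*, *Csrnp2*, *Abhd14a* and *Cecr6* (r of 0.92 to 0.96), and for *Chrna5* they included *Lmln*, *Mrpl57*, *Lrrc40* and *Exoc3* (r of 0.90 to 0.94).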

How the data were processed

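PFC RNA of 5 *Zbtb16* KO and 5 WT mice was sequenced as paired ends on a NovaSeq6000. The authors aligned reads to mm10 with STAR (2.7.1a), removed multi-mapped reads and deposited raw counts per gene, obtained with HTSeq (0.9.1) in its strict intersection mode on exons of Gencode M21. The strand setting is not given in the sources used here. From these counts, genes were filtered by edgeR's filterByExpr, scaled by TMM and tested by edgeR's quasi-likelihood test (edgeR 4.0.16, limma 3.58.1, R 4.3.3) with 3 surrogate variables from sva (3.50.0) on log2(CPM + 1). Benjamini-Hochberg adjustment covered all genes tested, with a threshold of 0.05. DESeq2 (1.42.0) and limma served as alternatives. Single genes were also compared by an exact permutation test of mean CPM, two-sided.

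On simulated counts for 14344 genes with 100 genes changed by each fold, 67% of those changed by a fold of 1.25 and 95% of those changed by a fold of 2 were called, with 11 false calls. The simulation held a hidden source of variation drawn without regard to genotype. Its dispersions were those of the real libraries after the 3 surrogate variables were fitted. These rates therefore need not hold for the real fit. The 10 genes, the pathway and marker lists and the naming rule (every member, every pathway gene passing 0.05 or else the 3 of smallest p per list, and the 5 most similar genes for *Chrm2*, *Chrm4* and *Chrna5*) were chosen with earlier results of these data known. *Slc18a3*, *Slc5a7*, *Prima1*, *Slc44a1* and *Chrnd* with *Chrng* were named after their values were seen. *Tmem35a* was matched as *Tmem35*, *Drd1* was not analysed here, and 1 of the genes most similar to *Chrna5* is not reported here. RPKM used the merged exon lengths of Gencode M21. Some symbols of the deposited counts, such as *Tmem35*, are not those of M21, so the exons counted may differ from those that gave the lengths. P-values set the difference between genotypes against the spread between mice. Those of edgeR, DESeq2 and limma do so after covariates such as the surrogate variables are fitted, and those of the permutation test do not.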

Additional observations from a re-analysis of the deposited data

Results flagged for a closer look

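The 10 genes were searched in both genotypes, 20 combinations in all, for a mouse far from the others by Dixon's ratio, the gap to the nearest mouse divided by the range, which chance passes in about 1 of 20 groups. It was passed by 2. For *Chrm2* KO mouse 5 was lowest, at 12.8 CPM against 17.8 CPM for the next KO mouse (ratio 0.884), and the values without it stand beside the *Chrm2* result. For *Chrm5* KO mouse 2 was highest, at 0.814 CPM (26 counts) against 0.0617 CPM for the next KO mouse (ratio 0.924), while the other 9 libraries held at most 3 counts.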

How the results depend on the processing

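The number of genes called by edgeR, 121 with 3 surrogate variables, was 30 with none, 34 with 1, 57 with 2, 38 with RIN and 7 with a striatal marker score in their place, 217 at an adjusted p below 0.1, 229 with DESeq2, 8 with limma on log2(CPM + 1), 0 with limma on log2(CPM + 0.1) (1340 at an unadjusted p below 0.05), and 39 (without WT mouse 3) to 248 (without KO mouse 2) when 1 mouse was left out. It was 123 with RLE size factors, 134 without a filter and 97 without KO mice 3 and 5. Scores of cholinergic and inhibitory neuron markers, chosen after seeing the data, gave 30 and 0 (707 at an unadjusted p below 0.05). Of the 9 genes tested, 1 (*Chrm2*) was called at an adjusted p below 0.1 and 1 by DESeq2, and 0 to 1 when 1 mouse was left out. Without overlap were 1 to 2 when 1 mouse was left out (2.18 to 3.31% of all genes) and 2 (*Chrm2* and *Chrna5*) without KO mice 3 and 5 (4.77% of all genes). The log2 fold change of *Chrm4* turned to -0.042 without KO mice 3 and 5 and -0.024 with the inhibitory score, and ran from -0.12 to 0.14 when 1 mouse was left out. That of *Chrna4* turned to 0.032 with no surrogate variables, 0.025 with RIN, 0.0082 with the striatal score and 0.058 with the cholinergic score, and ran from -0.093 to 0.029 when 1 mouse was left out. *Ache* was at 0.011 with the cholinergic score. *Lypd1* was at -0.10 with the inhibitory score and ran from -0.015 to 0.16 when 1 mouse was left out. *Chrm1*, *Chrm2*, *Chrm3*, *Chrna5*, *Chrna7* and *Chrnb2* kept their sign in all these fits, though not their size. The causes were not tested. Libraries of at least 30220122 counts left *Chrm5* at or under 3 counts in 9 mice and *Chrna5* at 80 to 203, which limits the precision of both.

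Deviations from the genotype means correlated between same-numbered KO and WT mice with r of 0.171, -0.002, 0.116, -0.107 and 0.0963, and not every mouse matched its own number best, so the numbers were not taken as pairs. With a replicate block in place of the surrogate variables 24 genes and none of the 9 were called, *Chrm2* had a log2 fold change of -0.36 (edgeR adjusted p = 0.248) and *Chrna4* of 0.026.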
